A study of Homo sapiens with 6 samples.

Results

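Mitochondrial ribosomal proteins are the proteins of the ribosome that works inside mitochondria, and in human cells all of them are encoded in the nucleus. They were taken here as the protein-coding genes of GENCODE 29 whose symbols start with MRPL (large subunit) or MRPS (small subunit), have no hyphen, and had an FPKM value in every library. This gave 78 genes, 49 MRPL and 29 MRPS, of 60658 gene identifiers in the files and 19687 protein-coding genes. The symbols follow sequence homology and the order of discovery, so a few of them do not give the place of the protein in the ribosome: MRPS18A and MRPS30 sit in the large subunit in ribosome structures, and MRPS36 was later assigned to the alpha-ketoglutarate dehydrogenase complex under the name KGD4. With these 3 genes moved, 51 genes belonged to the large subunit and 26 to the small subunit.

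Poly(A) RNA was sequenced from 2 human cell lines of castration-resistant prostate carcinoma. C4-2B MDVR was derived from C4-2B and is resistant to enzalutamide, and its stock cultures were kept in 20 μM enzalutamide, a drug used against prostate carcinoma; CWR22Rv1, derived from a relapsed xenograft, was kept in the same RPMI medium without it (0 μM). Each line was treated for 48 h with the vehicle DMSO, with 10 μM of APO (apoptozole) or with 10 μM of VER (VER155008), both described as inhibitors of the HSP70 chaperones. Each of the 6 conditions was represented by 1 library, so every difference below is one between 2 single libraries, has no replicate check, and carries no standard deviation and no p-value. The sample titles and protocols name the first line C4-2B MDVR, while its source labels name LNCaP-C4-2B and a parental line. Whether enzalutamide remained in the medium during the 48 h is not given in the sources used here.

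The mitochondrial ribosome translates the mRNAs that are copied from the mitochondrial genome, all of which encode core subunits of the respiratory chain and the ATP synthase. Its rRNAs also come from the mitochondrial genome, whereas its proteins are translated in the cytosol, imported, and assembled with the help of GTPases, helicases and rRNA-modifying enzymes. Import into the matrix is driven by HSPA9 (mortalin), the mitochondrial member of the HSP70 family. Many of the proteins have a homolog in bacteria, and the rest were gained in the mitochondrial lineage.

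The deposited FPKM values (fragments relative to the length of the transcript and to all mapped fragments) summed to between 647170 and 747930 per library. Read counts are unknown, and the relative depth, read from the step between the lowest FPKM values, lay between 1 and 1.67 times that of the C4-2B MDVR DMSO library. Transcripts of the mitochondrial chromosome made up 15.5%, 14.8% and 16.4% of the FPKM sum in C4-2B MDVR (DMSO, APO, VER) and 25.7%, 10.4% and 25.7% in CWR22Rv1. This share bears on every FPKM value, and its part in the differences below was not tested apart from the rescaled values that are given. The epithelial markers KRT8, KRT18 and EPCAM lay between 87.7 and 335 FPKM in all 6 libraries. Among markers of other cell types, the endothelial marker PECAM1 was listed at 0 in every library, the leukocyte marker PTPRC reached at most 0.0323 FPKM, and the fibroblast markers COL1A1, LUM and DCN and the macrophage marker CD68 exceeded 1 FPKM in at least 1 library.

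All 78 genes were expressed above the minimum of 0.1 FPKM in all 6 libraries, so none was lost to the filter. Their levels spanned from 7.64 to 295 FPKM in C4-2B MDVR and from 8.54 to 181 FPKM in CWR22Rv1 under DMSO. The median gene stood at 60.9 FPKM in C4-2B MDVR with DMSO, 60.9 FPKM with APO and 53.2 FPKM with VER. In CWR22Rv1 it stood at 48.3 FPKM with DMSO, 50.4 FPKM with APO and 44.6 FPKM with VER. The VER library was thus the lowest of each line, and every C4-2B MDVR library lay above every CWR22Rv1 library. The summed FPKM of the 78 genes gave the same order within C4-2B MDVR, at 5819 with DMSO, 5521 with APO and 4757 with VER, and in CWR22Rv1 it was 4423, 4774 and 4106. As a share of all FPKM outside the mitochondrial chromosome, the sum was 1.02%, 0.866% and 0.844% in C4-2B MDVR and 0.849%, 0.824% and 0.753% in CWR22Rv1, so on this scale the DMSO library was the highest of each line. In bulk RNA, fewer cells with a transcript and less transcript in each cell cannot be told apart.

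**Figure D1:**
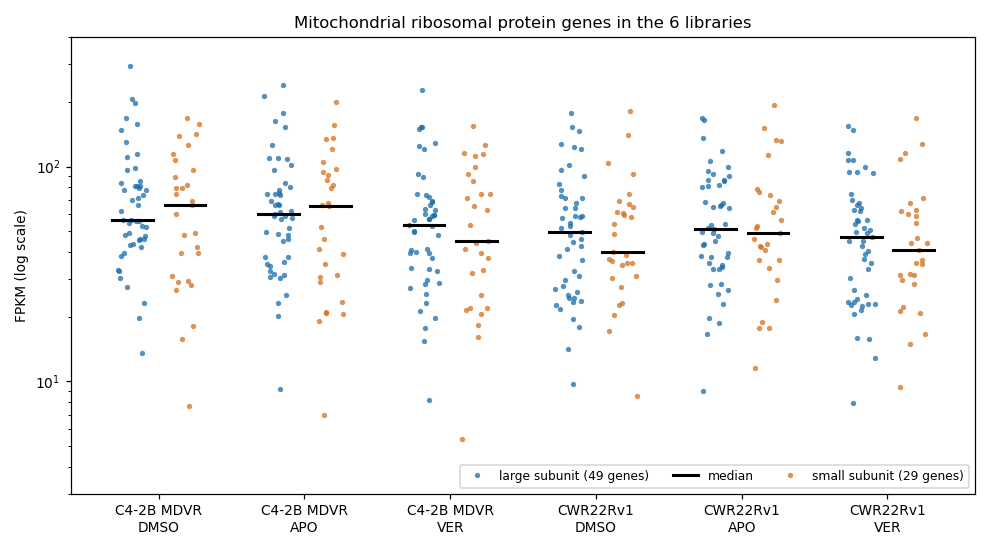
FPKM (log scale) of the 49 large subunit genes (blue) and the 29 small subunit genes (orange), grouped by symbol, in the 6 libraries; each point is 1 gene and each bar the median of its subunit. The overall median was lowest with VER in both lines, at 53.2 and 44.6 FPKM, and the ranges of the subunits overlapped in every library.

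Most proteins of the particle are present once in it, but their transcripts were not equal. FPKM is a value per transcript length, so levels of different genes can be set side by side. The highest mean over the 6 libraries was that of MRPL20, a large subunit protein with a bacterial homolog, with 295, 239 and 228 FPKM in C4-2B MDVR and 124, 85.8 and 94.5 FPKM in CWR22Rv1 in the order DMSO, APO and VER. MRPS24, in the head of the small subunit, was next with 169, 199 and 154 FPKM in C4-2B MDVR and 181, 193 and 168 FPKM in CWR22Rv1. MRPL24, which lies near the mouth of the exit tunnel, had 169, 177 and 153 FPKM in C4-2B MDVR and 153, 168 and 147 FPKM in CWR22Rv1. These genes differed in how even they were: MRPS24 and MRPL24 kept within a narrow range in all 6 libraries, while MRPL20 was higher in every C4-2B MDVR library than in any CWR22Rv1 library. MRPL51 followed with 158, 153 and 124 FPKM in C4-2B MDVR and 178, 135 and 154 FPKM in CWR22Rv1, and MRPL37 with 206, 212 and 152 FPKM in C4-2B MDVR and 90.8, 118 and 66.1 FPKM in CWR22Rv1.

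At the low end stood MRPS31, with 7.64, 6.97 and 5.39 FPKM in C4-2B MDVR and 8.54, 11.5 and 9.45 FPKM in CWR22Rv1. MRPL50 had 13.6, 9.17 and 8.22 FPKM in C4-2B MDVR and 9.69, 8.99 and 7.89 FPKM in CWR22Rv1. MRPS36, the gene that is no ribosome component in structures, had 18.1, 20.5 and 16.1 FPKM in C4-2B MDVR and 20.4, 17.7 and 22.3 FPKM in CWR22Rv1. Between the highest and the lowest gene of a library lay a factor of 38.6, 34.2 and 42.2 in C4-2B MDVR and of 21.2, 21.5 and 21.3 in CWR22Rv1 (DMSO, APO and VER). MRPL30 and MRPL46 completed the 5 lowest, with values between 12.8 and 33.02 FPKM. The order of the genes was much the same in both lines: across the 78 genes the DMSO levels of the lines had a Spearman correlation of 0.84, against 0.85 across 23671 genes, a description in which genes are not independent and which fixes no difference from other genes.

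The large and small subunits were expressed at like levels. Under DMSO the median was 56.3 FPKM for the large and 66.1 FPKM for the small subunit in C4-2B MDVR, and 49.5 and 39.8 FPKM in CWR22Rv1. The order of the subunits thus differed between the lines under DMSO, but it also turned within C4-2B MDVR. There the medians were 60.2 and 65.5 FPKM with APO and 53.3 and 44.8 FPKM with VER. In CWR22Rv1 they were 51.3 and 49.0 FPKM with APO and 47.1 and 40.8 FPKM with VER. The summed FPKM of the large subunit was 1.83, 1.76 and 1.76 times that of the small one in C4-2B MDVR (DMSO, APO, VER) and 1.81, 1.65 and 1.74 times in CWR22Rv1. The ratio was highest with DMSO in both lines.

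The genes were spread over 21 chromosomes, with at most 8 on any of them. In GENCODE 29, 17 of the 78 genes (21.8%) had the start of another protein-coding gene within 1000 bases on the opposite strand, pointing away, against 7.34% of all protein-coding genes. MRPL32 shares 24 exon bases with PSMA2, a subunit of the proteasome, on the opposite strand. MRPS12 shares 349 with SARS2, the mitochondrial seryl-tRNA synthetase. Because the genes of these pairs overlap, the pairs do not meet this definition. RefSeq windows of 300 bases, from 250 bases before to 50 bases after the annotated start (GRCh38), were found for 70 of the 78 genes and for 14896 protein-coding genes. Median GC content was 60.3% in the members' windows and 63.0% in all windows.

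Of 9 motifs searched on both strands, those of YY1 and of the ETS family stood out in the members' windows. YY1 is a zinc finger factor whose motif often lies just downstream of the start of housekeeping genes, and ETS factors include GABP, formerly called nuclear respiratory factor 2, which was first described on genes of the respiratory chain. The YY1 letters AAGATGGC were present in 20 of 70 windows (28.6%), against 3.99% of all windows, and the ETS letters CCGGAAG in 29 (41.4%), against 14.4%. At least one of these motifs was present in 41 windows (58.6%, against 17.5%), and both in 8 (11.4%, against 0.920%). Both subunits had them: YY1 letters in 12 of 42 large and 8 of 28 small subunit windows, and ETS letters in 17 of 42 and 12 of 28. The longer ETS form ACTTCCGG, which overlaps the shorter one when read on the other strand, was present in 15.7% of the members' windows and 6.36% of all windows. The NRF1 letters GCGC and TGCGC, parted by any 1 base, were present in 11.4% and 8.62%, their shorter form GCATGCGC in 8.57% and 4.31%, the E-box CACGTG in 10.0% and 8.94%, the GC box GGGCGG in 61.4% and 59.5%, the CCAAT box CCAAT in 28.6% and 36.4%, and the amino acid response letters TGATGNAA in 1.43% and 2.504%. A match is a description of the sequence and no evidence that a factor was bound. Because the YY1 letters contain ATG, a match can also hold a start codon. Of the first match in each of the 20 windows, 12 overlapped coding sequence, 5 lay in an untranslated part of an exon and 3 outside exons. The median first match lay 11 bases after the start for YY1 and 32 bases before it for ETS (position -32).

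**Figure D2:**
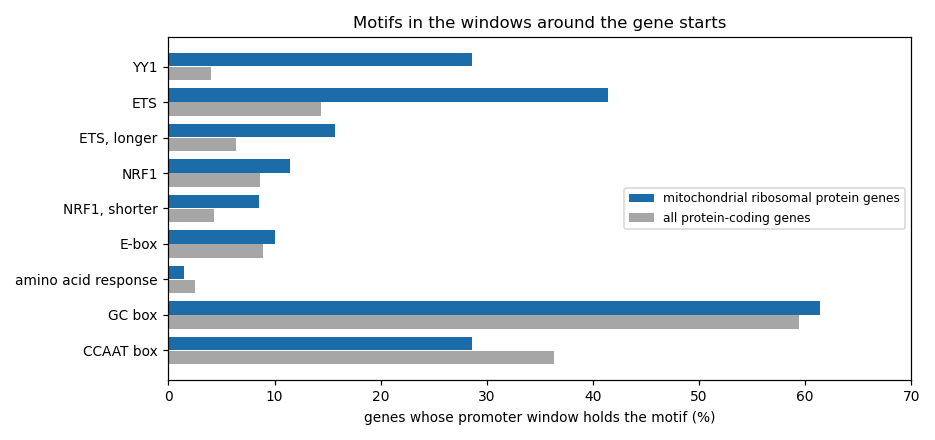
Share of promoter windows (%) that hold each of the 9 motifs, for the 70 mitochondrial ribosomal protein genes with a RefSeq window (blue) and for all 14896 protein-coding windows (grey). The largest gaps were those of the YY1 letters, at 28.6% against 3.99%, and of the ETS letters, at 41.4% against 14.4%.

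The YY1 sites of highly expressed members are shown because the same letters recur from gene to gene. In MRPL20, MRPS24, MRPL51, MRPL42, MRPS7 and MRPS18B they begin at positions 9 to 24 relative to the annotated start, whereas in MRPL52, MRPL32 and MRPS12 they begin upstream, at -98, -222 and -212. Each is a stretch of 28 bases from RefSeq, build GRCh38, printed 5′ to 3′ on the strand named, with the motif in capitals.
MRPL20, chr1:1407261-1407288, minus strand: cgacccgggcAAGATGGCagcggcgctg
MRPS24, chr7:43869481-43869508, minus strand: cgcttggcccAAGATGGCggcctccgtg
MRPL51, chr12:6493224-6493251, minus strand: ggtaaggcccAAGATGGCtgtcttcgcc
MRPL42, chr12:93467512-93467539, plus strand: ggattgaaacAAGATGGCgggttcgtgg
MRPS7, chr17:75261888-75261915, plus strand: gtggccagccAAGATGGCtgcccccgca
MRPS18B, chr6:30617853-30617880, plus strand: ggcgtacgtcAAGATGGCggcgtctgta
MRPL52, chr14:22829779-22829806, plus strand: acgatgacccAAGATGGCggagccgtga
MRPL32, chr7:42932144-42932171, minus strand: tcttcgggtaAAGATGGCggagcgcggg
MRPS12, chr19:38930722-38930749, minus strand: ttcccggtccAAGATGGCtgcgtccatg
In MRPS24, MRPS7 and MRPS18B the motif overlaps coding sequence, and in MRPL20, MRPL51 and MRPL42 it lies in a stretch annotated as untranslated exon. In MRPL32 and MRPS12 the letters lie on the opposite strand, which is that of the overlapping neighbours PSMA2 and SARS2.

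The ETS letters lay mostly a short way upstream of the start or in the first exon, on either strand. Examples from highly expressed members follow in the same form.
MRPL20, chr1:1407320-1407347, minus strand: gaccttcgccCCGGAAGtatcgcagggg
MRPL51, chr12:6493364-6493391, plus strand: cggtccgcctgCCGGAAGttttggagcg
MRPS34, chr16:1773188-1773215, plus strand: ttcggtcgcggCCGGAAGcgaggaagag
MRPL33, chr2:27771701-27771728, plus strand: gggccgtgccCCGGAAGcagttgttgtt
MRPS16, chr10:73252622-73252649, plus strand: aaacctcgactCCGGAAGcggatgatcc
MRPL20 and MRPL51 held the motifs of both factors. The inhibitor comparisons were also split by motif. With VER in C4-2B MDVR, the median log2 difference was -0.33 for the 20 genes with YY1 letters and -0.30 for the 50 without, and -0.30 for the 29 genes with ETS letters and -0.40 for the 41 without. With APO in CWR22Rv1 it was 0.04 with and 0.13 without YY1 letters, and 0.23 with and 0.09 without ETS letters. The YY1 gene itself had 39.8, 31.1 and 29.6 FPKM in C4-2B MDVR and 34.98, 30.7 and 28.1 FPKM in CWR22Rv1, and GABPA, the DNA-binding subunit of GABP, had 10.2, 8.07 and 7.93 FPKM in C4-2B MDVR and 16.4, 18.7 and 16.03 FPKM in CWR22Rv1.

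The first comparison asks what VER did to these transcripts in C4-2B MDVR. Differences are given as log2(FPKM + 0.1) of the treated minus the DMSO library, and a gene was called higher or lower where its fold change passed 1.2, which is 0.26 on this scale. With VER, 47 of the 78 genes were lower, against a background of 34.9% of the 20122 genes compared, and 2 were higher, against 35.6%. The members' median was -0.33 (0.794 times the DMSO level), while the median of all genes was 0; among genes with a mean above 10 FPKM, closer to the members in level, 33.1% were lower and 30.4% higher. Of the large subunit genes 30 of 49 were lower and 1 higher (median -0.39), and of the small subunit genes 17 of 29 were lower and 1 higher (median -0.27). Both subunits were thus shifted the same way, and the small gap between their medians has no replicate spread to be set against. The shift was made of many small differences: past 1.5-fold 13 members were lower, fewer than the background share of 22.4%, and none was higher, against 23.7%.

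The largest drop was in MRPL14, a protein at the subunit interface, with 56.3, 37.98 and 29.5 FPKM in C4-2B MDVR and 44.7, 39.7 and 37.1 FPKM in CWR22Rv1; its log2 difference with VER in C4-2B MDVR was -0.93. MRPS2, a small subunit protein with a bacterial homolog, had 74.2, 41.2 and 41.1 FPKM in C4-2B MDVR and 48.4, 36.9 and 31.3 FPKM in CWR22Rv1, and its DMSO value was the highest of each line. Its differences with VER were -0.85 in C4-2B MDVR and -0.63 in CWR22Rv1. MRPL19 had 49.3, 35.99 and 27.3 FPKM in C4-2B MDVR and 26.02, 28.3 and 15.97 FPKM in CWR22Rv1, and it was lowest with VER in both lines (-0.85 and -0.70). The 2 genes that were higher with VER in C4-2B MDVR were MRPS10, with 15.7, 21.1 and 20.6 FPKM in C4-2B MDVR and 30.2, 56.3 and 31.6 FPKM in CWR22Rv1 and a difference of 0.39, and MRPL54, with 43.3, 83.99 and 53.2 FPKM in C4-2B MDVR and 49.5, 91.9 and 49.4 FPKM in CWR22Rv1 and a difference of 0.30. MRPL43 came next at 0.25, just inside the limit.

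In CWR22Rv1, VER gave a smaller shift in the same direction. Here 23 of 78 genes were lower, against a background of 32.3% of 21608 genes, and 5 were higher, against 32.1%, so the share of lower genes (29.5%) was near the background and that of higher genes (6.41%) was well below it. The median was -0.13 (0.916 times the DMSO level), with -0.14 for the large and -0.11 for the small subunit. Rescaled to a median ratio of 1, the counts were 9 higher and 21 lower (33.9% and 30.3% of all genes), and rescaled to the same sum of FPKM outside the mitochondrial chromosome, 2 higher and 28 lower (29.5% and 36.2%). MRPL4, a large subunit protein with a bacterial homolog, was among the lowest with 79.5, 58.9 and 47.9 FPKM in C4-2B MDVR and 77.5, 65.97 and 50.5 FPKM in CWR22Rv1; its differences with VER were -0.73 in C4-2B MDVR and -0.62 in CWR22Rv1. The 5 genes higher with VER in CWR22Rv1 included MRPL48 (0.81), MRPL32 (0.39) and MRPL45 (0.30). MRPL45, which holds the ribosome at the inner membrane, had 55.99, 58.7 and 57.1 FPKM in C4-2B MDVR and 24.5, 34.1 and 30.3 FPKM in CWR22Rv1.

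Between the lines, which share no library, the VER differences of the 78 genes had a Spearman correlation of 0.62, against 0.39 across 18059 genes; genes share libraries and depth, so this is a description only. Past 1.2-fold, 22 members were lower in both lines, against a background of 18.2% of these genes, none was higher in both, against 17.9%, and 2 were opposite, against 11.5%. Of the 22, 20 stayed past the limit in both lines under every scaling tried. The 22 included MRPL12, the stalk protein that recruits translation factors, with 197, 126 and 128 FPKM in C4-2B MDVR and 120.5, 99.1 and 94.4 FPKM in CWR22Rv1. They also included MRPL36 and MRPS12, with VER differences of -0.81 and -0.37 for MRPL36 and of -0.32 and -0.40 for MRPS12.

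The second comparison asks the same of APO. In C4-2B MDVR, APO left the members near their DMSO level on balance, with genes moving both ways: 11 of 78 were higher, against a background of 37.7%, and 25 lower, against 35.4%, with a median of -0.08. Rescaled to the same sum of FPKM (TPM), the counts were 7 higher and 37 lower, against 32.1% and 42.3% of all genes on that scale, and rescaled to the same sum outside the mitochondrial chromosome, 6 higher and 39 lower, against 31.7% and 42.9%. The shares of lower members were thus near the background of each scale. By subunit, 7 of 49 large subunit genes were higher and 16 lower (median -0.11), and 4 of 29 small subunit genes were higher and 9 lower (median -0.05).

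In CWR22Rv1 with APO, 31 of 78 genes were higher, against a background of 35.6%, and 12 lower, against 39.2% (36.2% and 32.9% of genes with a mean above 10 FPKM). The median was 0.13 as deposited (1.09 times the DMSO level), but it turned to -0.03, with 19 higher and 21 lower (30.3% and 45.3% of all genes), when the libraries were rescaled to the same sum outside the mitochondrial chromosome, and it rose to 0.24 with 36 higher and 10 lower (40.3% and 35.5% of all genes) as TPM. The direction of the members as a set in this comparison therefore depended on the scaling, and the mitochondrial chromosome's share fell from 25.7% to 10.4% between these 2 libraries. By subunit, 18 of 49 large subunit genes were higher and 8 lower (median 0.11, turning to -0.04 with the rescaling outside the mitochondrial chromosome), and 13 of 29 small subunit genes were higher and 4 lower (median 0.18, and 0.03 with it). The median of all genes above 1 FPKM in this comparison was 0.01 as deposited, 0.12 as TPM and -0.15 after the rescaling outside the mitochondrial chromosome. Taken relative to it, the members' median was 0.12 with APO in CWR22Rv1 under each of these scalings. That sameness is built in, because each rescaling moves all genes of a library by one factor, and it is no check of the value. In C4-2B MDVR the same relative value was -0.09 with APO and -0.33 with VER, and -0.09 with VER in CWR22Rv1.

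**Figure D3:**
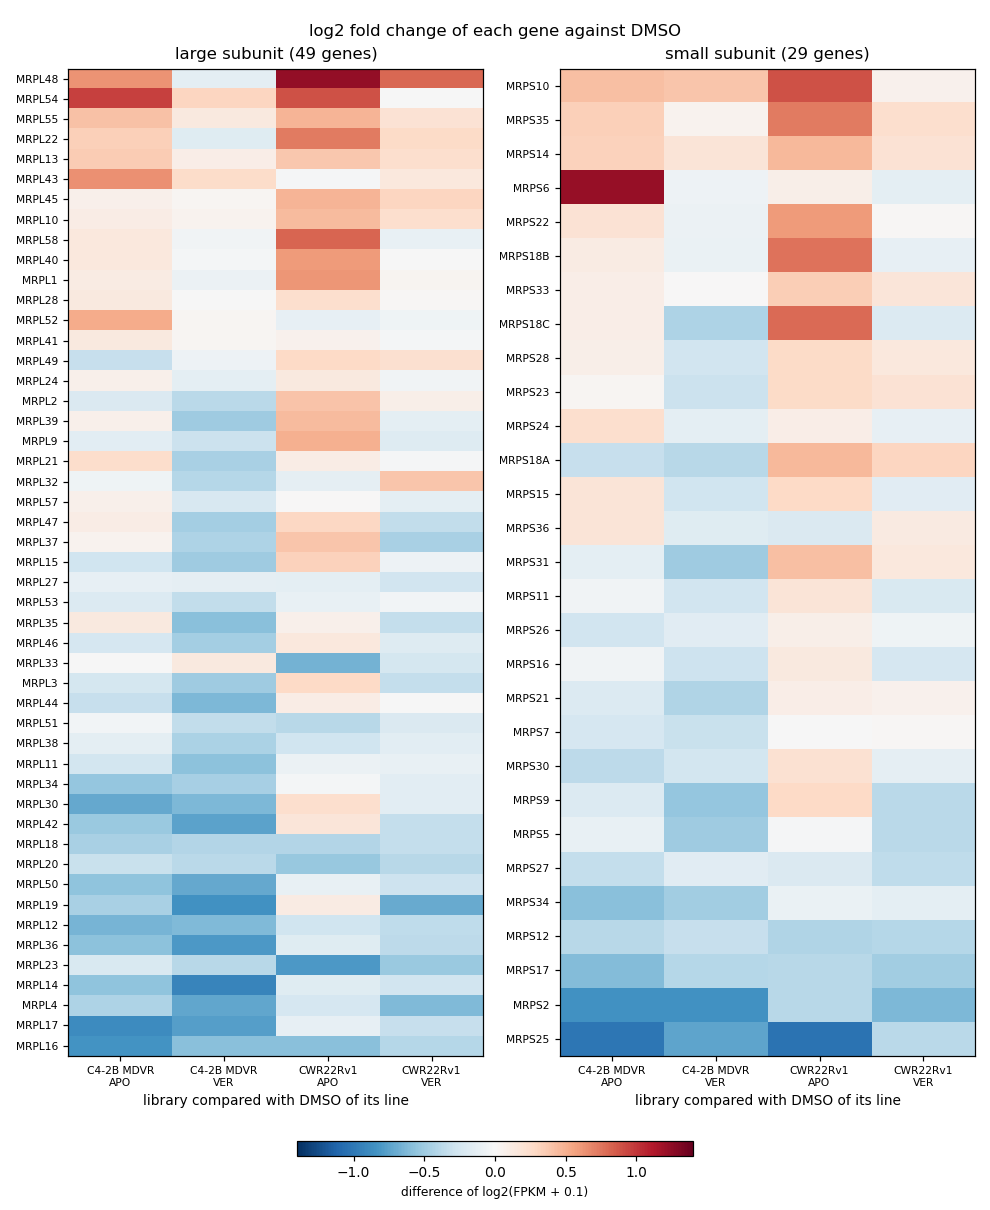
Log2 difference against DMSO of the line for each of the 49 large and 29 small subunit genes, sorted by the mean over the 4 comparisons; red is higher and blue lower than DMSO. The C4-2B MDVR VER column is mostly blue (47 genes lower), and the CWR22Rv1 APO column has the most red (31 genes higher as deposited, 19 when rescaled to the same sum outside the mitochondrial chromosome, where its median turned from 0.13 to -0.03).

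Single genes moved further with APO than the set. MRPS6, a small subunit protein with a bacterial homolog, had 39.4, 91.7 and 37.6 FPKM in C4-2B MDVR and 22.7, 24.01 and 20.7 FPKM in CWR22Rv1, so that the C4-2B MDVR APO library stood apart from the other 5 at a difference of 1.22. MRPS6 shares 273 of its 4299 exon bases with SLC5A3, a myo-inositol transporter gene on the same strand, which had 16.2, 30.3 and 27.1 FPKM in C4-2B MDVR and 6.61, 1.97 and 7.202 FPKM in CWR22Rv1; the part of this overlap in the MRPS6 values was not tested. MRPL54 had 43.3, 83.99 and 53.2 FPKM in C4-2B MDVR and 49.5, 91.9 and 49.4 FPKM in CWR22Rv1 and was higher with APO in both lines (0.95 and 0.89). MRPL48, a protein of the central protuberance, had 19.6, 30.4 and 17.8 FPKM in C4-2B MDVR and 36.7, 86.6 and 64.4 FPKM in CWR22Rv1, and its APO differences were 0.63 and 1.24. MRPL43 had 47.7, 74.6 and 56.9 FPKM in C4-2B MDVR and 96.2, 95.05 and 107 FPKM in CWR22Rv1, with a difference of 0.64 in C4-2B MDVR and -0.02 in CWR22Rv1. It shares 1170 of 3573 exon bases (32.7%) with SEMA4G on the opposite strand; whether the quantification used the strand is not given in the sources used here.

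On the lower side, MRPS25, a small subunit protein without a bacterial homolog, had 42.2, 20.8 and 25.2 FPKM in C4-2B MDVR and 38.6, 18.8 and 29.8 FPKM in CWR22Rv1. Its APO differences were -1.01 and -1.03, the lowest of all members in both lines. MRPS25 shares 22.2% of its exon bases with NR2C2 on the opposite strand, a gene with 11.9, 11.3 and 16.1 FPKM in C4-2B MDVR and 10.1, 12.6 and 8.75 FPKM in CWR22Rv1. MRPL17 was at its lowest in the C4-2B MDVR APO library, with 56.1, 30.5 and 32.7 FPKM in C4-2B MDVR and 41.5, 38.2 and 33.2 FPKM in CWR22Rv1 and a difference of -0.88. In CWR22Rv1 the next lowest were MRPL23 (-0.80), a protein at the exit tunnel with 52.2, 44.9 and 39.7 FPKM in C4-2B MDVR and 32.6, 18.6 and 22.7 FPKM in CWR22Rv1, and MRPL33 (-0.66), with 110.5, 110.1 and 121 FPKM in C4-2B MDVR and 127, 80.6 and 108 FPKM in CWR22Rv1. MRPL33 shares 21.1% of its exon bases with BABAM2 on the same strand, and BABAM2 had 23.5, 39.8 and 33.3 FPKM in C4-2B MDVR and 24.4, 42.6 and 24.03 FPKM in CWR22Rv1.

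Across the lines, the APO differences of the 78 genes had a Spearman correlation of 0.57, against 0.44 across 18059 genes, again as a description. Past 1.2-fold, 8 members were higher in both lines, 8 were lower in both and 3 were opposite, against 21.3%, 21.6% and 13.2% of these genes, so each count was below its background share. The 8 higher genes were MRPL13, MRPL22, MRPL48, MRPL54, MRPL55, MRPS10, MRPS14 and MRPS35, and the 8 lower genes MRPL12, MRPL16, MRPL18, MRPL20, MRPS2, MRPS12, MRPS17 and MRPS25. Under every scaling tried, MRPL48, MRPL54 and MRPS10 stayed past the limit in both lines on the higher side, and all but MRPL12 on the lower side; MRPL13, MRPL22, MRPS14 and MRPS35 fell inside it in C4-2B MDVR as TPM, and those and MRPL55 with the rescaling outside the mitochondrial chromosome. MRPS35 had 96.3, 121 and 99.7 FPKM in C4-2B MDVR and 91.97, 152 and 108 FPKM in CWR22Rv1, and MRPL22, at the exit tunnel, had 45.3, 56.9 and 40.1 FPKM in C4-2B MDVR and 29.7, 49.1 and 35.7 FPKM in CWR22Rv1. In both genes the APO library was the highest of each line.

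**Figure D4:**
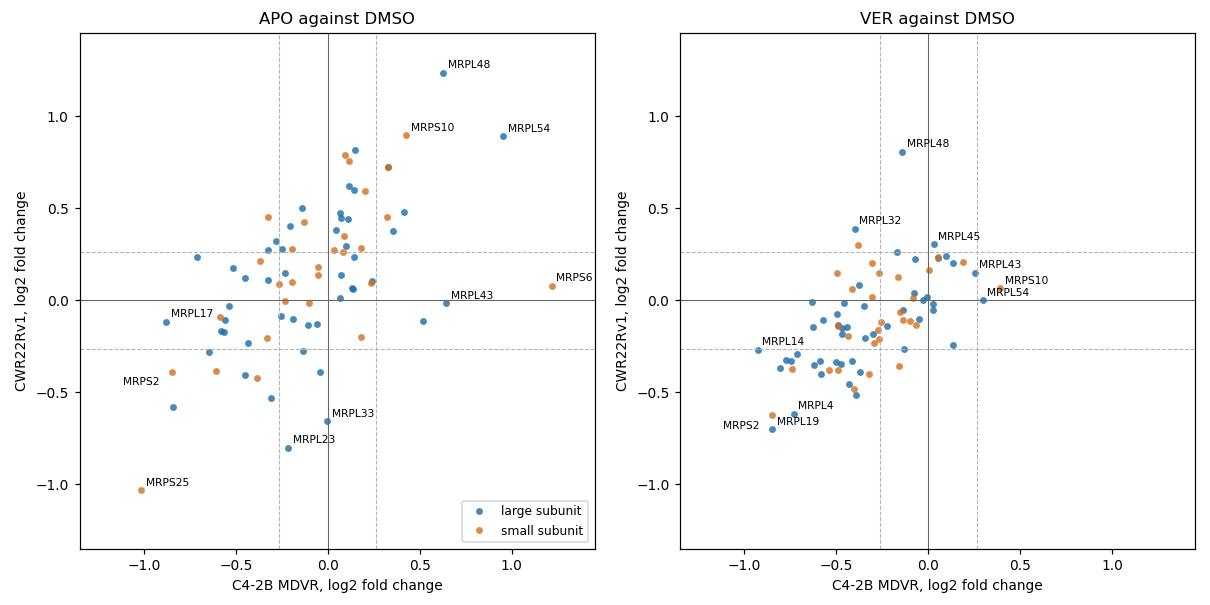
Log2 difference against DMSO in C4-2B MDVR (x axis) and in CWR22Rv1 (y axis) for the 78 genes, with APO on the left and VER on the right; blue points are large and orange points small subunit genes, dashed lines mark a fold change of 1.2, and the genes with the most extreme values are named. With VER 22 genes lie in the lower left corner beyond both lines and none in the upper right (18.2% and 17.9% of all genes), while with APO 8 genes lie in each of these corners (21.6% and 21.3% of all genes).

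Some genes held one direction in both lines with both inhibitors. By sign alone, 8 were higher, 23 lower and 47 mixed over the 4 inhibitor comparisons as deposited. With the rescaling outside the mitochondrial chromosome, 5 were higher and 33 lower. Since APO and VER are set against the same DMSO library of each line, these values are not independent. MRPS14 had 28.1, 35.1 and 31.98 FPKM in C4-2B MDVR and 30.8, 42.2 and 35.5 FPKM in CWR22Rv1, and MRPL55 had 81.3, 108 and 89.1 FPKM in C4-2B MDVR and 59.1, 82.4 and 67.9 FPKM in CWR22Rv1. In both genes APO was the highest library of each line and DMSO the lowest, but the VER differences, at most 0.20 for MRPS14 and 0.20 for MRPL55, did not pass 1.2-fold. MRPL13 had 38.1, 48.7 and 40.7 FPKM in C4-2B MDVR and 38.2, 49.5 and 45.1 FPKM in CWR22Rv1, and MRPL10, which anchors the stalk, had 48.2, 51.96 and 49.9 FPKM in C4-2B MDVR and 19.5, 26.5 and 22.9 FPKM in CWR22Rv1. For MRPL10 the APO difference in C4-2B MDVR, 0.11 as deposited, turned to -0.04 as TPM and to -0.05 with the rescaling outside the mitochondrial chromosome. MRPL16, near the peptidyl transferase centre, had 56.1, 31.3 and 37.4 FPKM in C4-2B MDVR and 51.9, 34.7 and 39.3 FPKM in CWR22Rv1, so that DMSO was the highest library of each line by a wide step. MRPL18, of the central protuberance, had 84.2, 61.7 and 63.2 FPKM in C4-2B MDVR and 67.9, 51.3 and 53.9 FPKM in CWR22Rv1. MRPS17 had 29.2, 19.1 and 22.02 FPKM in C4-2B MDVR and 23.2, 17.7 and 16.6 FPKM in CWR22Rv1. MRPL16, MRPL18 and MRPS17 passed 1.2-fold downwards in all 4 comparisons as deposited, and so did MRPL12, MRPL20, MRPS2, MRPS12 and MRPS25. The share of all genes that did so was not computed. MRPS17 shares 5.19% of its exon bases with NIPSNAP2 on the same strand.

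The inhibitors were also set directly against each other at the same dose and time. In C4-2B MDVR, 32 of 78 genes were lower with VER than with APO, against a background of 32.5%, and 1 was higher, against 28.5%; the median was -0.22. Among genes with a mean above 10 FPKM the background was 27.7% lower and 18.8% higher. Rescaled to the same sum outside the mitochondrial chromosome the counts were 10 higher and 12 lower (39.5% and 23.8% of all genes) with a median of -0.043, and as TPM 6 higher and 12 lower (37.4% and 24.9%). In CWR22Rv1, 32 genes were lower, against a background of 34.5%, and 5 were higher, against 37.3%; the median was -0.20, and as TPM the counts were 2 higher and 57 lower (31.3% and 43.1% of all genes). Of genes with a mean above 10 FPKM in this comparison 37.0% were lower and 28.9% higher, so the share of lower members as deposited was near the background, and that of higher members below it. As deposited, 17 members were lower with VER than with APO in both lines, against a background of 15.1% of 18059 genes. In 2 members the lines were opposite, against 14.5%. The single gene that was higher with VER than with APO in both lines was MRPS25 (0.27 and 0.66), against a background of 14.6%. The largest gap in C4-2B MDVR was that of MRPS6 (-1.28) and in CWR22Rv1 that of MRPS18C (-0.98).

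The next comparison sets the lines side by side under DMSO, where line and maintenance medium cannot be told apart. Of the 78 genes 45 were higher in C4-2B MDVR, against a background of 35.5% of 23671 genes, and 6 were higher in CWR22Rv1, against 39.9%. The median was 0.37 (1.30 times), and when rescaled to the same sum outside the mitochondrial chromosome it was 0.25, with 39 genes higher and 12 lower (32.2% and 43.5% of all genes). The large subunit median was 0.47, with 31 of 49 genes higher and 3 lower, and the small subunit median 0.26, with 14 of 29 higher and 3 lower. Genes with a mean above 10 FPKM, which are closer to the members in level, were higher in 42.4% and lower in 30.0%.

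MRPL58, a peptidyl-tRNA hydrolase built into the large subunit, showed the widest gap towards C4-2B MDVR, with 62.01, 68.8 and 59.8 FPKM in C4-2B MDVR and 24.5, 43.1 and 22.8 FPKM in CWR22Rv1 and a difference under DMSO of 1.34. MRPL10 followed at 1.30 and MRPL20 at 1.25. Every C4-2B MDVR library was above every CWR22Rv1 library for these 3 genes. The opposite held for MRPL43 (-1.01), MRPS10 (-0.94) and MRPL48 (-0.90), and in these genes, too, the libraries of the lines did not overlap.

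The small subunit family MRPS18 has 3 members with separate places in the ribosome. MRPS18A, in the large subunit in structures, had 82.2, 65.5 and 62.9 FPKM in C4-2B MDVR and 35.7, 49.00 and 43.98 FPKM in CWR22Rv1. MRPS18B had 79.7, 86.4 and 74.5 FPKM in C4-2B MDVR and 66.7, 113 and 61.8 FPKM in CWR22Rv1, and MRPS18C had 29.2, 31.1 and 21.5 FPKM in C4-2B MDVR and 17.2, 29.7 and 14.99 FPKM in CWR22Rv1. In CWR22Rv1 the APO library was the highest for each of them (0.45, 0.76 and 0.79). In C4-2B MDVR the APO differences were -0.33, 0.12 and 0.09, so only MRPS18A passed 1.2-fold there, downwards; as TPM the values of MRPS18B and MRPS18C turned to -0.03 and -0.05. MRPS18C shares 40.2% of its exon bases with ABRAXAS1 on the opposite strand. MRPS30, also in the large subunit in structures, had 39.4, 30.5 and 32.99 FPKM in C4-2B MDVR and 39.8, 46.1 and 36.6 FPKM in CWR22Rv1. Grouped by structures, the large and small subunit medians with VER in C4-2B MDVR were -0.39 and -0.28, and with APO in CWR22Rv1 0.12 and 0.16.

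Proteins that sit together in the ribosome did not all move together. In the stalk, MRPL12 was lower with VER in both lines, as given above, and MRPL11 at its base had 42.1, 35.3 and 28.3 FPKM in C4-2B MDVR and 46.1, 43.4 and 42.9 FPKM in CWR22Rv1, with VER differences of -0.57 and -0.11, while MRPL10 had VER differences of 0.05 and 0.23. Around the exit tunnel, MRPL22 and MRPL23 had APO differences of opposite sign in each line: those of C4-2B MDVR were 0.33 and -0.22, and those of CWR22Rv1 0.72 and -0.80. MRPL47, also at the tunnel, had 46.2, 49.5 and 33.3 FPKM in C4-2B MDVR and 30.8, 37.8 and 24.2 FPKM in CWR22Rv1, and MRPL39 and MRPL44 had VER differences in C4-2B MDVR of -0.49 and -0.63. In the central protuberance, MRPL48 stood high with APO, while MRPL38 had 85.5, 77.8 and 62.9 FPKM in C4-2B MDVR and 57.3, 47.4 and 51.8 FPKM in CWR22Rv1 and MRPL46 APO differences of -0.23 and 0.15, the latter turning to -0.006 with the rescaling outside the mitochondrial chromosome.

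Several members are known as disease genes, in which inherited variants impair mitochondrial translation. MRPL3, one of them, had 130.3, 109.5 and 91.96 FPKM in C4-2B MDVR and 71.3, 86.4 and 56.5 FPKM in CWR22Rv1; it was lower with VER in both lines (-0.50 and -0.34). MRPS16 had 141, 136 and 115 FPKM in C4-2B MDVR and 69.3, 76.1 and 59.1 FPKM in CWR22Rv1, and MRPS22 had 68.9, 79.3 and 65.2 FPKM in C4-2B MDVR and 34.8, 52.6 and 35.1 FPKM in CWR22Rv1. Both were higher in every C4-2B MDVR library than in any CWR22Rv1 library. MRPS34 had 157, 105 and 112 FPKM in C4-2B MDVR and 141, 132 and 128 FPKM in CWR22Rv1, and its differences in C4-2B MDVR were -0.59 (APO) and -0.49 (VER), against -0.09 and -0.14 for CWR22Rv1. MRPS7 had 114, 96.95 and 92.1 FPKM in C4-2B MDVR and 61.7, 61.5 and 62.5 FPKM in CWR22Rv1, and its CWR22Rv1 libraries were nearly equal.

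The 48 members with a bacterial homolog and the 30 without one were also set side by side. With VER in C4-2B MDVR, 34 of the 48 (70.8%) and 13 of the 30 (43.3%) were lower, against a background of 34.9%, with medians of -0.39 and -0.19. With VER in CWR22Rv1, 18 of the 48 (37.5%) and 5 of the 30 (16.7%) were lower, against a background of 32.3%, with medians of -0.17 and -0.05, so the former share was near the background and the latter below it. With APO the medians were -0.13 and 0.04 in C4-2B MDVR, where the 0.04 turned to -0.11 as TPM, and 0.11 and 0.16 in CWR22Rv1, where the 0.11 turned to -0.04 with the rescaling outside the mitochondrial chromosome. Whether the classes differ was not tested.

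Mitochondrial ribosomal proteins that carry other symbols moved in several ways. DAP3, a GTP-binding small subunit protein, had 109, 183 and 118 FPKM in C4-2B MDVR and 44.4, 54.5 and 48.03 FPKM in CWR22Rv1, with an APO difference of 0.74 in C4-2B MDVR and 0.30 in CWR22Rv1. PTCD3, a pentatricopeptide repeat protein of the small subunit, had 46.2, 32.6 and 23.2 FPKM in C4-2B MDVR and 51.5, 43.9 and 55.9 FPKM in CWR22Rv1, with a VER difference of -0.99 in C4-2B MDVR and 0.12 in CWR22Rv1. AURKAIP1 had 249, 269 and 219 FPKM in C4-2B MDVR and 160.5, 129 and 119 FPKM in CWR22Rv1. For the 5 genes of this kind the median in C4-2B MDVR was -0.07 with APO and -0.39 with VER, and -0.09 with APO (0.02 as TPM) and -0.03 with VER (0.008 at a median ratio of 1) in CWR22Rv1.

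Factors that build the mitochondrial ribosome had negative medians in all 4 inhibitor comparisons, under every scaling tried. Of 29 genes for assembly and rRNA modification, 13 were lower and 3 higher with APO and 17 lower and 2 higher with VER in C4-2B MDVR; in CWR22Rv1, 12 were lower and 5 higher with APO and 15 lower and 1 higher with VER. The lower shares of the 29 genes were 44.8%, 58.6%, 41.4% and 51.7% in this order, against 35.4%, 34.9%, 39.2% and 32.3% of all genes. The third share was thus near the background. Of all genes 37.7%, 35.6%, 35.6% and 32.1% were higher. As TPM, APO in CWR22Rv1 gave 7 lower and 8 higher, against 35.5% and 40.3% of all genes on that scale. The balance of calls turned there while the median, at -0.07, did not. The medians as deposited were -0.21, -0.44, -0.19 and -0.27 in this order. RCC1L, an assembly factor, had 59.4, 29.1 and 32.4 FPKM in C4-2B MDVR and 59.5, 44.7 and 34.6 FPKM in CWR22Rv1, and DHX30, an RNA helicase, had 42.7, 24.8 and 25.1 FPKM in C4-2B MDVR and 58.4, 37.3 and 39.1 FPKM in CWR22Rv1. In both genes DMSO was the highest library of each line. AFG3L2 and SPG7 form the m-AAA protease, which matures MRPL32; SPG7 had 27.98, 17.2 and 22.3 FPKM in C4-2B MDVR and 39.7, 14.9 and 38.8 FPKM in CWR22Rv1, and MRPL32 itself 77.5, 74.3 and 58.6 FPKM in C4-2B MDVR and 71.6, 65.4 and 93.7 FPKM in CWR22Rv1.

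Among 18 translation factors of mitochondria, 4 were lower and 1 higher with APO and 8 lower and 2 higher with VER in C4-2B MDVR, and 5 were lower and 6 higher with APO and 7 lower and none higher with VER in CWR22Rv1. The lower shares were 22.2%, 44.4%, 27.8% and 38.9% in this order, against 35.4%, 34.9%, 39.2% and 32.3% of all genes. Of all genes 37.7%, 35.6%, 35.6% and 32.1% were higher. The medians of the 18 genes were -0.14, -0.26, -0.05 and -0.19 in this order. The third turned to 0.06 as TPM, where the first comparison had 10 lower, against 42.3% of all genes on that scale. TUFM, the elongation factor Tu, had 219.8, 194 and 179.9 FPKM in C4-2B MDVR and 196, 134 and 167 FPKM in CWR22Rv1, and GFM1, an elongation factor G, had 51.1, 42.99 and 31.7 FPKM in C4-2B MDVR and 33.3, 29.9 and 26.4 FPKM in CWR22Rv1. SLIRP, which with LRPPRC stabilises mitochondrial mRNAs, had 331, 357 and 232 FPKM in C4-2B MDVR and 209.9, 212 and 137 FPKM in CWR22Rv1, and was lower with VER in both lines (-0.51 and -0.62). Of 13 genes for mitochondrial transcription, DNA replication and RNA turnover, 9 in C4-2B MDVR were lower with APO and 9 with VER (medians -0.56 and -0.52), and 8 with APO and 4 with VER in CWR22Rv1 (medians -0.32 and -0.20). In this order 2, 0, 3 and 1 were higher. The lower shares were 69.2%, 69.2%, 61.5% and 30.8%, to be set against the same shares of all genes. POLRMT, the mitochondrial RNA polymerase, had 32.01, 21.5 and 22.3 FPKM in C4-2B MDVR and 39.8, 19.4 and 26.3 FPKM in CWR22Rv1, and TFAM, which packages mitochondrial DNA, had 29.6, 22.95 and 15.03 FPKM in C4-2B MDVR and 19.4, 17.1 and 16.98 FPKM in CWR22Rv1.

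The RNA partners of these proteins were measured too, but their values were less even. The libraries were selected for poly(A), which holds mitochondrial rRNA in an uncertain share. The small subunit rRNA MT-RNR1 had 15829, 5370 and 4928 FPKM in C4-2B MDVR and 2128, 2615 and 2959 FPKM in CWR22Rv1, and the large subunit rRNA MT-RNR2 had 16635, 17598 and 13943 FPKM in C4-2B MDVR and 11216, 7320 and 17966 FPKM in CWR22Rv1. The 13 mitochondrial mRNAs, the only substrates of this ribosome, in C4-2B MDVR had medians of 0.28 with APO (0.13 as TPM, where 2 rather than 7 of the 13 were higher) and 0.19 with VER, and of -1.43 with APO and 0.14 with VER in CWR22Rv1. All 13 were lower with APO in CWR22Rv1, where for example MT-CO1 had 6247, 6170 and 6615 FPKM in C4-2B MDVR and 18710, 4444 and 23187 FPKM in CWR22Rv1. Under DMSO all 13 were lower in C4-2B MDVR than in CWR22Rv1 (median -1.13), while the ribosomal protein genes had a median of 0.37 in the other direction.

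Among mitochondrial chaperones and proteases, HSPA9 had 121, 249 and 145 FPKM in C4-2B MDVR and 151, 355 and 151 FPKM in CWR22Rv1, so that APO was the highest library in both lines (1.04 and 1.23) and VER was at 0.27 and -0.01. The matrix protease LONP1 had 56.5, 143 and 101 FPKM in C4-2B MDVR and 59.97, 129 and 66.3 FPKM in CWR22Rv1. TRAP1, a mitochondrial HSP90, had 122, 104 and 80.98 FPKM in C4-2B MDVR and 128, 92.7 and 86.9 FPKM in CWR22Rv1. Of these 8 genes, 3 were higher and 1 lower with APO and 2 higher and 2 lower with VER in C4-2B MDVR, and 3 higher and 3 lower with APO and none higher and 3 lower with VER in CWR22Rv1. Of 11 regulators of mitochondrial gene expression, 8 in C4-2B MDVR were lower with APO and 7 with VER, and 3 with APO and 5 with VER in CWR22Rv1. In this order 1, 1, 3 and 1 were higher. Beside both lists, the shares of all genes were 35.4%, 34.9%, 39.2% and 32.3% lower and 37.7%, 35.6%, 35.6% and 32.1% higher. PPRC1, a coactivator of nuclear respiratory factors, had 23.5, 13.4 and 11.1 FPKM in C4-2B MDVR and 18.9, 12.1 and 11.1 FPKM in CWR22Rv1 and was lower in all 4 comparisons. MYC, a regulator of ribosome production, had 120.5, 22.6 and 82.3 FPKM in C4-2B MDVR and 118, 44.8 and 83.00 FPKM in CWR22Rv1.

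Cytosolic ribosomal protein genes had positive medians in all 4 inhibitor comparisons, under every scaling tried. With APO 70 of 77 were higher in C4-2B MDVR (median 0.47) and 71 of 77 in CWR22Rv1 (median 0.62), and with VER 14 (median 0.16) and 40 (median 0.27). These shares were 90.9%, 92.2%, 18.2% and 51.9%, against 37.7%, 35.6%, 35.6% and 32.1% of all genes in the same order. None was lower in any of the 4 comparisons as deposited. With APO 46 and 61 genes were higher after the rescaling outside the mitochondrial chromosome (31.7% and 30.3% of all genes). Nuclear genes for respiratory chain subunits in C4-2B MDVR had medians of 0.16 with APO and -0.08 with VER, where the 0.16 turned to -0.007 with that rescaling, and of -0.12 and -0.13 in CWR22Rv1. With VER in C4-2B MDVR, 22 of 80 such genes were lower (27.5%) and 9 higher (11.2%), against 60.3% and 2.56% of the mitochondrial ribosomal protein genes. The shares of all genes there were 34.9% and 35.6%. With VER in CWR22Rv1 the lower shares were alike. There 24 of 79 such genes were lower (30.4%) and 10 higher (12.7%), against 29.5% and 6.41% of the mitochondrial ribosomal protein genes. Of all genes in that comparison 32.3% were lower and 32.1% higher. With 1 library per condition, the difference between these groups could not be tested.

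**Figure D5:**
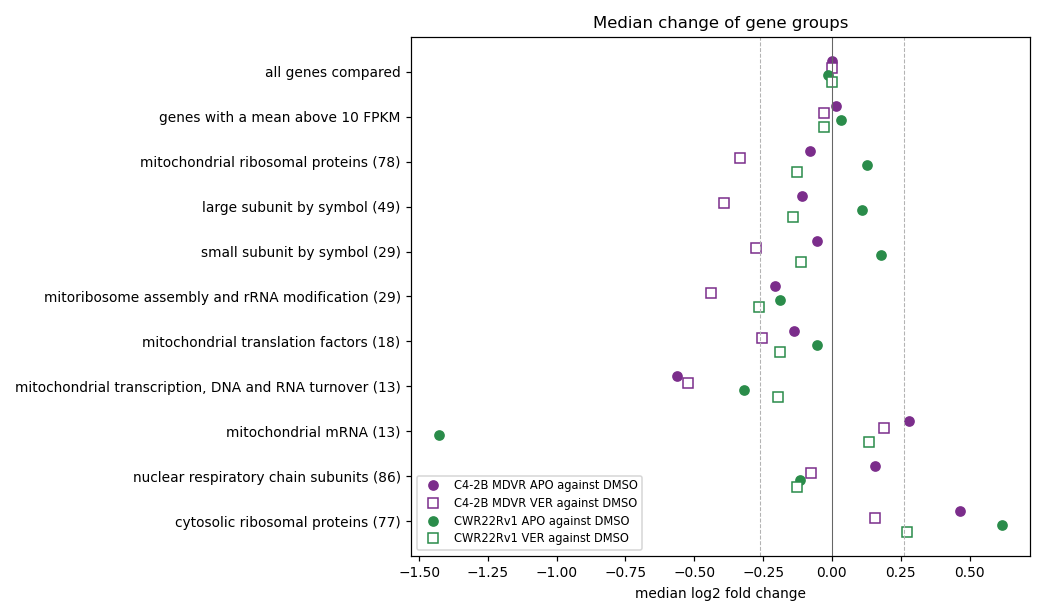
Median log2 difference against DMSO for gene groups (number of genes in brackets), with filled circles for APO and open squares for VER, purple for C4-2B MDVR and green for CWR22Rv1; dashed lines mark a fold change of 1.2. The mitochondrial ribosomal proteins lie at -0.08 and -0.33 in C4-2B MDVR and at 0.13 and -0.13 in CWR22Rv1 (APO and VER; the 0.13 turns to -0.03 when the libraries are rescaled to the same sum outside the mitochondrial chromosome), while the cytosolic ribosomal proteins lie at 0.16 or above in all 4 comparisons as deposited.

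Overlaps and copies bear on single members. The files list 75 pseudogenes named after members, of which 5 exceeded 1 FPKM in any library. The highest was MRPL45P2, with 3.24, 7.28 and 1.75 FPKM in C4-2B MDVR and 6.60, 10.6 and 6.05 FPKM in CWR22Rv1, so reads of MRPL45 and MRPL45P2 may have been shared out between them; 2 copies of MRPS31 reached 4.57 and 3.54 FPKM beside MRPS31 itself at 5.39 to 11.5 FPKM. In GENCODE 29, 7 members share exon bases on the same strand with a gene above 5 FPKM, and 21 on the opposite strand.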

How the data were processed

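RNA of 6 libraries was compared, 1 for each line and treatment. The members and the gene lists were chosen with earlier results of these data known. The submitters' processing notes name GRCh38, HISAT, Cufflinks and Cuffnorm; versions, the annotation and the use of strand are not given in the sources used here. The labels describe a strand-marking mRNA kit and the study's methods another maker's kit. The values deposited are 1 FPKM for each gene in each library, which Cuffnorm scales to a common level; these are not counts, read totals are unknown, and no count test, interval or detection floor was given. Of 60658 identifiers, 57047 were found in GENCODE 29, from which symbols, types and coordinates were taken.

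Differences are of log2(FPKM + 0.1), for genes above 0.1 FPKM in at least 1 library of the lines compared, and fold changes of low genes are understated on this scale. Calls used a fold change above 1.2. Subunit by structures and bacterial homologs were assigned from general knowledge of the nomenclature. The genes named were those with the largest smallest change in one direction over the 4 inhibitor comparisons, the 3 highest and 3 lowest of each inhibitor comparison, the 5 highest and 5 lowest means, the 3 widest gaps between lines in each direction, those opposite between lines, and those whose symbol and structural place differ; genes of both-line counts, of the MRPS18 family, of ribosome regions, disease genes and list genes were added after their values were seen. Motifs were searched in RefSeq windows, and sites are the first match of highly expressed members. Alternatives were pseudocounts of 0.01 and 1, other filters, 3 rescalings, folds of 1.5 and 2, subunits by structures and other backgrounds; the background of genes above 10 FPKM was chosen after seeing the data. The calling code was tested on simulated data. The scripts ran on Python 3.11.15 with numpy 2.4.6, pandas 2.3.3, matplotlib 3.10.9 and scipy 1.17.1.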

Additional observations from a re-analysis of the deposited data

Results flagged for a closer look

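A few members moved past 1.2-fold in opposite directions in the lines. With 1 library per condition the difference between the lines was not tested for any of them. With APO, MRPL15 had a log2 difference of -0.28 in C4-2B MDVR and 0.32 in CWR22Rv1, MRPL49 had -0.32 and 0.27, and MRPS18A had -0.33 and 0.45. When rescaled to the same sum outside the mitochondrial chromosome, the CWR22Rv1 values of MRPL15 and MRPL49 were 0.17 and 0.12, inside the limit. MRPL49, which shares 9.16% of its exon bases with FAU and 11.6% with SYVN1 on the opposite strand, had 77.7, 62.0 and 73.9 FPKM in C4-2B MDVR and 53.2, 64.3 and 62.1 FPKM in CWR22Rv1 (DMSO, APO and VER). MRPL15 had 69.99, 57.6 and 49.5 FPKM and 42.7, 53.4 and 40.5 FPKM. With VER, MRPL32 had -0.40 and 0.39, and MRPS18A had -0.39 and 0.30; for MRPS18A the CWR22Rv1 value was 0.23 as TPM. MRPS18A was thus the gene that differed between the lines with both inhibitors, but APO and VER share the DMSO library of each line.

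The RNAs that work with these proteins also went opposite ways. The median of the 2 mitochondrial rRNAs with VER was -0.97 in C4-2B MDVR and 0.58 in CWR22Rv1, and the median of the 13 mitochondrial mRNAs with APO was 0.28 in C4-2B MDVR and -1.43 in CWR22Rv1. For the mRNAs the C4-2B MDVR value was 0.13 as TPM and 0.12 with the rescaling outside the mitochondrial chromosome, inside the limit, with 2 rather than 7 genes higher. These differences between the lines were not tested either.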

How the results depend on the processing

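No median or value of a named gene that was past the limit as deposited reversed under any alternative. Such a reversal could hardly occur, since each rescaling shifted the genes of a comparison by less than the limit. Its absence is therefore no check of these values. Of 185 values of named genes, 19 that were inside the limit changed sign under a rescaling, among them those of MRPL10, MRPL24 and MRPL37 with APO in C4-2B MDVR. Pseudocounts moved no count of members by over 1.5 times. Filters could not move these counts, since every member lay at 5.39 FPKM or more in every library. Another background leaves the counts of members as they are. Larger folds lowered all counts. At 1.5-fold the members higher and lower were 4 and 8 with APO and 0 and 13 with VER in C4-2B MDVR, 11 and 3 with APO and 1 and 3 with VER in CWR22Rv1, 0 and 5 (C4-2B MDVR) and 1 and 12 (CWR22Rv1) for VER against APO, and 29 and 3 between the lines. The shares of all genes were 25.2% and 23.1%, 23.7% and 22.4%, 23.8% and 27.5%, 19.1% and 17.5%, 15.4% and 17.7%, 25.6% and 20.6%, and 26.3% and 31.9%, so the members' share was above the background for the 29 and below it for each other count. At 2-fold they were 1 and 1, 0 and 0, 1 and 1, 0 and 0, 0 and 1, 0 and 0, and 11 and 1 in the same order, each a smaller share than that of all genes. As TPM, APO in C4-2B MDVR had 7 higher and a median of -0.23, APO in CWR22Rv1 a median of 0.24, VER in CWR22Rv1 2 higher, VER against APO 6 higher and 12 lower (median -0.072) in C4-2B MDVR and 2 higher and 57 lower (median -0.38) in CWR22Rv1. With the same sum outside the mitochondrial chromosome, APO in C4-2B MDVR had 6 higher and 39 lower (median -0.24), APO in CWR22Rv1 19 and 21 (median -0.026), VER in CWR22Rv1 2 higher, VER against APO in C4-2B MDVR 10 and 12 (median -0.043), and the lines 12 lower (median 0.25). At a median ratio of 1, VER in CWR22Rv1 had 9 higher and VER against APO in C4-2B MDVR 3 higher. These rescalings move all genes of a library by one factor. The gap between subunit medians was small throughout and turned sign, to 0.002, for VER against APO in C4-2B MDVR with subunits by structures. Of the single-gene values, 1278 kept their side of the limit and moved little, 155 moved by over 0.1, 28 newly passed it and 19 no longer passed it. The 1278 include the values under the filters, which could not change, since all these genes lay above the filter limits. The pseudocounts also act little at such levels, so the 1278 overstate how far the values were put to the test. Read depth is unknown, so no detection limit can be given. No paired analysis was possible because each condition has 1 library, and no library could be left out for the same reason.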
